A study of Homo sapiens with 8 samples.

Results

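Tetraspanins are small membrane proteins that cross the membrane 4 times, bind integrins, proteases and immunoglobulin-like proteins beside them, and gather these partners into patches of the cell surface and of vesicle membranes. Some direct traffic to lysosomes or mark extracellular vesicles, and the TspanC8 subgroup escorts the protease ADAM10 to the surface and bears on which of its substrates are cut. The genes described here are all protein-coding genes with a TSPAN symbol followed by a number, together with CD9, CD37, CD53, CD63, CD81, CD82 and CD151. This rule, which uses no measured value, gave 29 genes of the 78932 in the deposited tables.

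The libraries come from HCT116, a human colorectal cancer line, in which NUDT21 carries a degradation tag (dTAG). NUDT21 is the small subunit of cleavage factor Im, which binds UGUA motifs in nascent RNA ahead of poly(A) sites. Cells of all 8 libraries carried the tag and received JTE-607, an inhibitor of CPSF73, the endonuclease of 3′-end cleavage; 4 also received DMSO, the solvent, and 4 received dTAGV1, which directs tagged proteins to degradation. The labels give no dose, time or clone, and no libraries without JTE-607 were analysed here, so the comparison asks which RNA levels differ with dTAGV1 while cleavage is inhibited. Nothing in the labels says that the 4 libraries of a group came from separate cultures, so p-values measure the spread between these libraries, which may be technical.

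Reads counted to genes on their own strand numbered 3447842 to 4291256 per library. NUDT21 RNA was lower in each dTAGV1 library (15 to 43 reads) than in any DMSO library (104 to 139 reads). The labels name the tag on NUDT21 but no RNA level, and the tag acts on protein. The cause of the lower RNA was not tested. The epithelial markers EPCAM, KRT8, KRT18, KRT19 and CDH1 were all measured, with a summed level of 1542 to 1787 CPM (counts in each 1000000 of the library) with DMSO and 1224 to 1322 CPM with dTAGV1. Their members went different ways, since KRT18 and KRT19 were called lower (log2 fold changes -0.60 and -0.65), EPCAM was called higher (0.28), and KRT8 and CDH1 were not called (-0.38 and 0.02). The leukocyte markers PTPRC, CD3E and MS4A1 did not pass the count filter. Among the stromal markers COL1A1, COL1A2, PECAM1 and VWF, only COL1A1 passed the count filter, at 17.3 ± 2.03 CPM with DMSO and 13.8 ± 1.77 CPM with dTAGV1 (SD over 4 libraries each). CPM is used throughout after scaling of the libraries by the TMM method; the kit reads 1 stretch per transcript near the poly(A) tail, so levels of different genes were compared without a correction for length. In bulk RNA, fewer cells expressing a gene and less RNA per cell cannot be told apart.

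Since the reads come from the ends of transcripts, the end sequences of 6 of the members called different are shown. Each is given as up to 30 bases around the poly(A) signal hexamer, with the hexamer in capitals. They are the most distal ends of protein-coding transcripts in GENCODE 29 on GRCh38, 5′ to 3′ on the strand of the gene, and the ends in use in these cells were not determined. TSPAN12 and TSPAN6 rose by more than 2-fold, TSPAN18 fell by more than 2-fold, and TSPAN5, TSPAN17 and CD9 fell by less. The rise of TSPAN12 rests on 9 to 13 reads with DMSO and 25 to 35 with dTAGV1. This gene entered the test through the dTAGV1 libraries. The windows lie at chr7:120787325-120787354 (minus strand) for TSPAN12, chrX:100627112-100627141 (minus) for TSPAN6, chr11:44932393-44932421 (plus) for TSPAN18, chr4:98470370-98470399 (minus) for TSPAN5, chr5:176659020-176659049 (plus) for TSPAN17 and chr12:6238228-6238257 (plus) for CD9.
TSPAN12: ttaaaatgtgtcAATAAAtattttctagag
TSPAN6: aacttttgtggaAATAAAtacctaatacaa
TSPAN18: aaaggaacaaagAATAAAtagtgaccgtg
TSPAN5: aaggctgtcattAATAAActtggttctacc
TSPAN17: tgtacatgctacAATAAAtgcagctggcag
CD9: aatttgatacatAATAAAaaattatgacaa

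A window could be shown only for an end with a hexamer, and all 6 of those chosen carry AATAAA. Over the 20 members tested, 12 had AATAAA and 2 had ATTAAA within the last 50 bases, 70% in all, against 79.2% of 10637 tested protein-coding genes. The letters TGTA, the DNA form of the motif that cleavage factor Im binds, were searched on the transcript strand in the last 100 bases. They occurred at least once in 14 of the 20 members and in 55.5% of the 10637 genes. Of the 9 members that rose 6 held the motif, and of the 6 that fell 6 did, beside 58.3% of all protein-coding genes that rose and 56.2% of those that fell. TSPAN12, TSPAN13 and CD82, which rose, had 2 copies, as did TSPAN14, which fell, and CD151, which was not called. TSPAN15, TSPAN31 and TSPAN9, which also rose, had 0. A match is a description of the annotated end and not a binding site.

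Enough reads for a test were found for 20 of the 29 genes, and 15 of the 20 were called different by edgeR, at an adjusted p under 0.05 after Benjamini-Hochberg adjustment over 12618 genes. Across all genes tested the same rule called 57.9%. Higher values with dTAGV1 were called for 9 members, beside 29.4% of all genes, and lower values for 6, beside 28.5%. For 13 of the 20 members the CPM ranges of the groups were separate, against 50.9% of all genes. The median log2 fold change was 0.09 for the members and 0.01 for all genes, and the median size of the change regardless of sign was 0.66 and 0.42. Members thus lay on both sides of 0, from -1.32 for TSPAN18 to 1.55 for TSPAN12. Of the 20, 19 exceeded the minimum of the count filter in all 8 libraries, and TSPAN12 exceeded it in all 4 dTAGV1 libraries but in 2 of the DMSO libraries, so that its entry into the test depended on the group in which it is high.

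**Figure D1:**
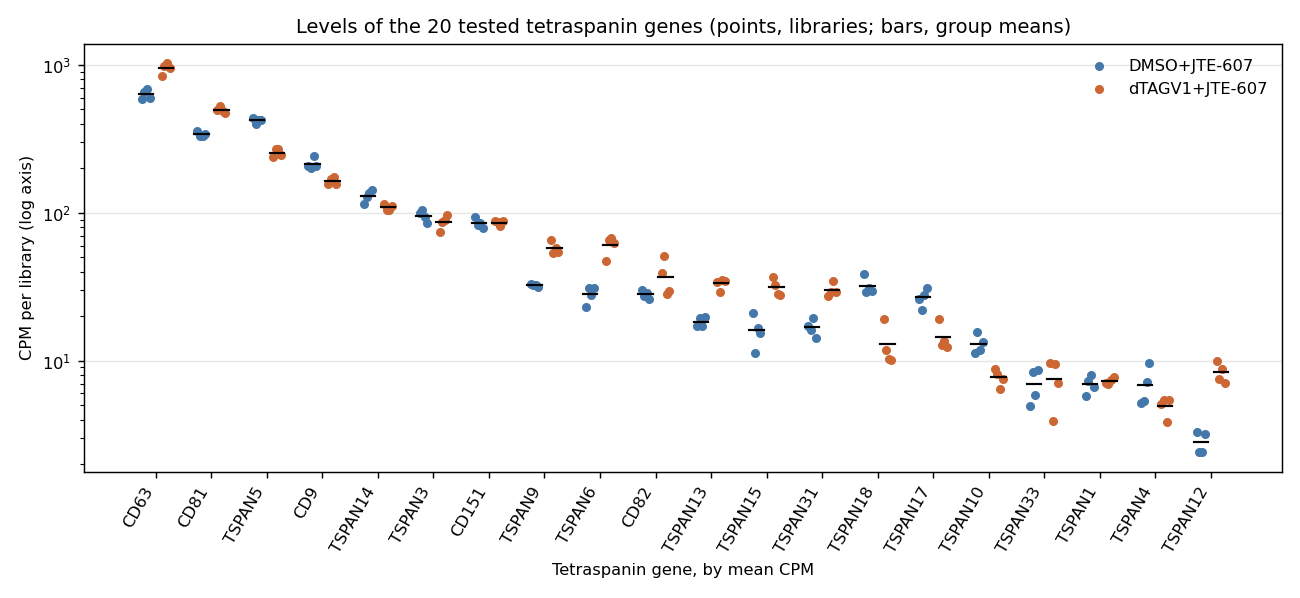
Level of each tested tetraspanin gene in every library, in CPM on a log axis, ordered by mean; points are the 4 libraries of a group and bars the group means. CD63 is the most abundant in both groups, and the points of the groups separate for 13 of the 20 genes.

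The summed level of all members was 2127 to 2231 CPM with DMSO and 2339 to 2542 CPM with dTAGV1. The most abundant members were the vesicle-associated CD63, CD81 and CD9 with TSPAN5. CD63, a tetraspanin of late endosomes and lysosomes (ENSG00000135404; GRCh38 chromosome 12, 55725323 to 55729707, minus strand), stood at 587.8, 654.5, 685.2 and 601.1 CPM in DMSO replicates 1 to 4 and at 846.3, 978.4, 1022 and 947.7 CPM in dTAGV1 replicates 1 to 4. Every dTAGV1 library was above every DMSO library. CD63 rose, with a log2 fold change of 0.59 ± 0.07 (SE, edgeR adjusted p = 1.86e-07). Its annotated end had neither hexamer in the last 50 bases.

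CD81, a surface tetraspanin and a receptor for hepatitis C virus (ENSG00000110651; chromosome 11, 2376177 to 2397419, plus strand), was at 358.8, 330.6, 329.2 and 343 CPM with DMSO. With dTAGV1 it was at 491.5, 528.3, 484.3 and 475.1 CPM. These groups were likewise apart, and CD81 rose 1.45-fold, with a log2 fold change of 0.54 ± 0.07 (SE, edgeR adjusted p = 2.11e-07).

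CD9, a tetraspanin of the cell surface that takes part in adhesion and membrane fusion (ENSG00000010278; chromosome 12, 6199715 to 6238271, plus strand), moved the other way. It was at 207.7, 199.4, 240.9 and 208.2 CPM with DMSO and at 157, 170.1, 174.4 and 157.3 CPM with dTAGV1. The lowest DMSO library lay above the highest dTAGV1 library. The log2 fold change of CD9 was -0.38 ± 0.08 (SE, edgeR adjusted p = 0.000153). Within the sum of CD9, CD63 and CD81, a measure that does not depend on the scaling of libraries, the share of CD9 was 16.8% to 19.2% with DMSO and 9.96% to 10.5% with dTAGV1. The ratio of CD63 to CD9 was 2.96 ± 0.216 with DMSO and 5.76 ± 0.269 with dTAGV1 (SD over 4 libraries each), again without overlap. All 3 genes are used as markers of extracellular vesicles, and their RNA levels thus did not move together.

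The TspanC8 genes TSPAN5, TSPAN10, TSPAN14, TSPAN15, TSPAN17 and TSPAN33 were all tested. Of these, 1 rose (TSPAN15), 4 fell (TSPAN5, TSPAN10, TSPAN14 and TSPAN17) and TSPAN33 was not called, with a median log2 fold change of -0.49 over the 6, beside 29.4% of all genes called higher, 28.5% called lower and a median of 0.01. TSPAN5, which promotes Notch signalling through ADAM10 (ENSG00000168785; chromosome 4, 98470367 to 98658629, minus strand), was the most abundant of them at 439.7, 397.9, 423.2 and 425.8 CPM with DMSO and 237.2, 269.8, 268.1 and 244.1 CPM with dTAGV1. The lowest DMSO library was far above the highest dTAGV1 library. Its log2 fold change was -0.73 ± 0.07 (SE, edgeR adjusted p = 3.07e-09).

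TSPAN14 (ENSG00000108219; chromosome 10, 80454166 to 80533123, plus strand) was the second TspanC8 gene by level. It was at 113.9, 128.5, 136.1 and 142.9 CPM with DMSO and at 114.5, 105.1, 104.6 and 110.7 CPM with dTAGV1. The groups overlapped, since DMSO replicate 1 lay just below dTAGV1 replicate 1. The log2 fold change of TSPAN14 was -0.26 ± 0.08 (SE, edgeR adjusted p = 0.00853). TSPAN17 (ENSG00000048140; chromosome 5, 176647387 to 176659054, plus strand) was at 26.23, 21.95, 27.75 and 31.16 CPM with DMSO and at 19.27, 12.69, 13.55 and 12.3 CPM with dTAGV1. Each dTAGV1 library lay below each DMSO library, replicate 1 being the nearest, with a log2 fold change of -0.89 ± 0.16 (SE, edgeR adjusted p = 4.68e-05).

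TSPAN10 (ENSG00000182612; chromosome 17, 81637171 to 81648749, plus strand) was scarcer, at 11.2, 15.68, 11.74 and 13.35 CPM with DMSO and 8.787, 8.156, 6.481 and 7.568 CPM with dTAGV1. Its groups did not overlap, and its log2 fold change was -0.75 ± 0.20 (SE, edgeR adjusted p = 0.00196). TSPAN33, a TspanC8 gene known from the erythroid and B-cell lineages, was at 4.919, 8.441, 5.87 and 8.655 CPM with DMSO and 9.637, 3.927, 9.427 and 7.095 CPM with dTAGV1, so that the groups lay across each other. With 13 to 35 reads per library, the 95% interval of its log2 fold change ran from -0.44 to 0.64 (edgeR adjusted p = 0.764).

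TSPAN15, a TspanC8 protein known for cleavage of N-cadherin by ADAM10 (ENSG00000099282; chromosome 10, 69451473 to 69507669, plus strand), was the member of this group that rose. It was at 21.04, 11.33, 16.54 and 15.33 CPM with DMSO and at 36.56, 32.32, 28.28 and 27.91 CPM with dTAGV1. Each dTAGV1 library exceeded each DMSO library, and the change was 1.95-fold, a log2 fold change of 0.97 ± 0.16 (SE, edgeR adjusted p = 1.38e-05). Its share of the summed TspanC8 level was 2.61% ± 0.614 with DMSO and 7.36% ± 0.901 with dTAGV1 (SD over 4 libraries each). The share of TSPAN5 was 68.6% ± 1.89 and 60% ± 3.16, and that of TSPAN14 21.2% ± 1.84 and 25.6% ± 1.52 (SD over 4 libraries each). None of these 3 shares overlapped between the groups, and TSPAN5 remained the largest share in every library. The share of TSPAN17 did overlap, at 3.76% to 4.89% with DMSO and 2.94% to 4.52% with dTAGV1. So did those of TSPAN10 (1.815% to 2.69% and 1.51% to 2.06%) and TSPAN33 (0.797% to 1.45% and 0.909% to 2.26%). The summed TspanC8 level itself was 583.9 to 637.2 CPM with DMSO and 409.6 to 432 CPM with dTAGV1.

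ADAM10, the protease that TspanC8 proteins bind (ENSG00000137845; chromosome 15, 58588807 to 58749978, minus strand), rose while most of that group fell. Its levels were 81.16, 91.16, 85.91 and 93.72 CPM with DMSO and 281.5, 276.7, 290.8 and 258.3 CPM with dTAGV1. No library of either group came near the other group. This was a 3.14-fold rise, a log2 fold change of 1.65 ± 0.08 (SE, edgeR adjusted p = 7.31e-15). Protein levels and cleavage by ADAM10 were not measured.

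**Figure D2:**
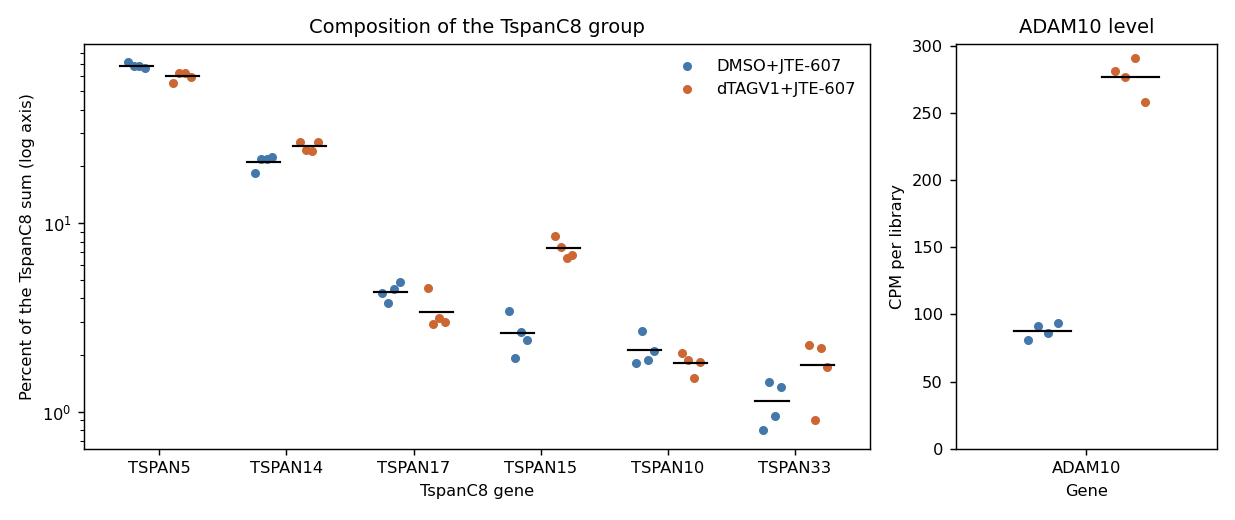
Left, share of each TspanC8 gene in their summed level, in percent on a log axis; right, level of ADAM10 in CPM from 0. Points are libraries and bars group means; TSPAN15 goes from 2.61% to 7.36% of the sum, and ADAM10 lies at 81.16 to 93.72 CPM with DMSO and 258.3 to 290.8 CPM with dTAGV1.

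CD82 and CD151 are surface tetraspanins known for effects on cell migration. CD151, which binds laminin-binding integrins (ENSG00000177697; chromosome 11, 832843 to 839831, plus strand), was at 93.73, 82.48, 85.11 and 79.38 CPM with DMSO and 87.3, 86.09, 81.9 and 87.98 CPM with dTAGV1. The groups covered the same range, and the 95% interval of the log2 fold change, -0.16 to 0.19, held 0 (edgeR adjusted p = 0.909). CD82, described as a metastasis suppressor (ENSG00000085117; chromosome 11, 44564427 to 44620363, plus strand), was at 30.06, 27.25, 28.81 and 25.96 CPM with DMSO and 39.4, 50.75, 28.28 and 29.56 CPM with dTAGV1. It was called higher at a log2 fold change of 0.39 ± 0.15 (SE, edgeR adjusted p = 0.0321), but the groups overlapped and replicates 1 and 2 carried the difference. Without dTAGV1 replicate 2 the log2 fold change of CD82 was 0.20 and it was no longer called (edgeR adjusted p = 0.238), and leaving out dTAGV1 replicate 1 or any of DMSO replicates 2, 3 and 4 also ended the call, at log2 fold changes of 0.35 to 0.40. Without dTAGV1 replicate 3 or 4 the log2 fold change was 0.49 or 0.48, and CD82 was called.

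Among the other TSPAN genes, 5 rose, 1 fell and 3 were not called of the 9 tested, which is 66.7% called beside 57.9% of all genes. TSPAN12, a part of the Norrin and Frizzled-4 signalling complex (ENSG00000106025; chromosome 7, 120787320 to 120858402, minus strand), had the highest fold change of all members on few reads. It had 12, 10, 9 and 13 reads in the DMSO libraries and 35, 25, 30 and 30 in the dTAGV1 libraries, or 2.40 to 3.28 CPM and 7.10 to 9.92 CPM. The counts did not overlap, and the log2 fold change was 1.55 ± 0.26 (SE, edgeR adjusted p = 1.81e-05), the 95% interval being 1.01 to 2.09. TSPAN12 exceeded the minimum of the count filter in 4 dTAGV1 libraries but only 2 DMSO libraries. Its rank and p-value therefore depend on entry through the group in which it is high.

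TSPAN6, which binds the vesicle adaptor syntenin (ENSG00000000003; chromosome X, 100627109 to 100639991, minus strand), was at 23.23, 30.87, 27.75 and 30.91 CPM with DMSO and 47.33, 64.95, 67.75 and 62.44 CPM with dTAGV1. Its lowest dTAGV1 library was well above its highest DMSO library. TSPAN6 rose 2.14-fold, with a log2 fold change of 1.10 ± 0.12 (SE, edgeR adjusted p = 4.32e-08). TSPAN9, known from platelets (ENSG00000011105; chromosome 12, 3077355 to 3286564, plus strand), was at 33.06, 32.32, 32.28 and 31.4 CPM with DMSO and 65.47, 53.47, 57.74 and 53.92 CPM with dTAGV1. The DMSO libraries of TSPAN9 lay close together and below every dTAGV1 library, and its log2 fold change was 0.84 ± 0.11 (SE, edgeR adjusted p = 2.60e-07).

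TSPAN13 (ENSG00000106537; chromosome 7, 16753535 to 16784536, plus strand) was at 17.22, 19.29, 17.08 and 19.78 CPM with DMSO and 34.01, 29, 35.35 and 34.77 CPM with dTAGV1. These ranges were apart, with a log2 fold change of 0.86 ± 0.13 (SE, edgeR adjusted p = 4.14e-06). TSPAN18, which acts on calcium entry through Orai1 (ENSG00000157570, chromosome 11, 44726465 to 44932421, plus strand), had the lowest log2 fold change of the members on its own strand. A count irrespective of strand gives reads that meet genes on both strands to no gene. By that count TSPAN17 (-0.92), TSPAN10 (-0.78) and TSPAN5 (-0.76) were lower than TSPAN18 (-0.75). On its own strand TSPAN18 was at 38.8, 28.94, 31.22 and 29.43 CPM with DMSO and 19.27, 11.78, 10.31 and 10.17 CPM with dTAGV1. Replicate 1 was the highest of each group, and the groups did not overlap. TSPAN18 had a log2 fold change of -1.32 ± 0.18 (SE, edgeR adjusted p = 8.04e-07).

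TSPAN31, a gene known for its amplification together with CDK4 in sarcomas (ENSG00000135452; chromosome 12, 57738013 to 57750211, plus strand), was at 17.22, 16.16, 19.48 and 14.34 CPM with DMSO and 27.49, 29, 34.47 and 29.09 CPM with dTAGV1. The groups were separate, with a log2 fold change of 0.84 ± 0.14 (SE, edgeR adjusted p = 1.58e-05). The 3 members of this class that were not called were TSPAN3, TSPAN4 and TSPAN1. TSPAN3 was well measured, at 85.07 to 104.4 CPM with DMSO and 74.54 to 96.02 CPM with dTAGV1, and its log2 fold change had a 95% interval of -0.33 to 0.05. TSPAN4, known from migrasomes, and TSPAN1 had 13 to 39 reads per library and 95% intervals of -1.0 to 0.08 and -0.37 to 0.53, so that these intervals also hold changes of moderate size.

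**Figure D3:**
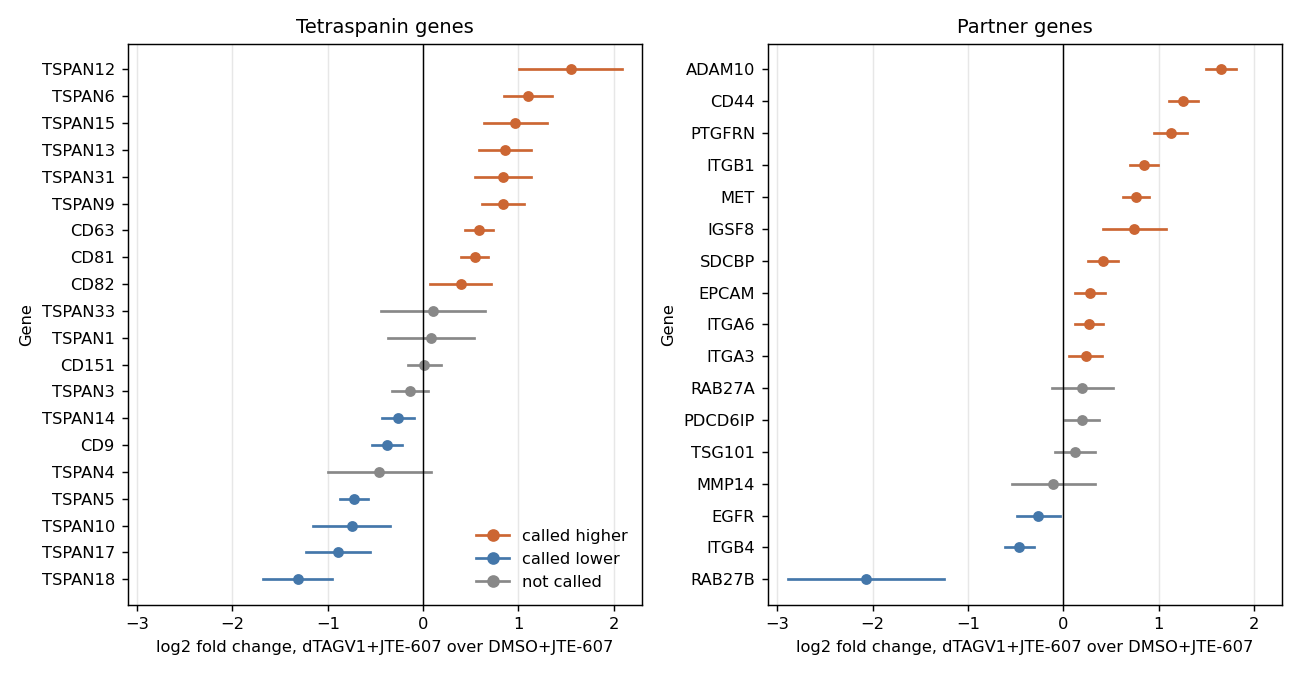
Log2 fold change (x axis) of each tested tetraspanin gene (left) and partner gene (right), with points at the estimate, lines for the 95% interval of edgeR, and colours for the call. The tetraspanins run from -1.32 for TSPAN18 to 1.55 for TSPAN12, which entered the test through the dTAGV1 libraries. ADAM10 has the highest value among the partners.

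TSPAN31 and TSPAN18 overlap genes on the other strand, and the tables also give the reads on that strand. TSPAN31 had 319, 437, 425 and 447 opposite-strand reads in the DMSO libraries and 324, 306, 261 and 344 in the dTAGV1 libraries. These are 4.13 times its own reads, and they are close to the reads of CDK4, which lies on that strand and shares 1369 exonic bases with TSPAN31. CDK4 had 309, 418, 412 and 436 reads with DMSO and 319, 288, 249 and 324 reads with dTAGV1. CDK4 was lower with dTAGV1, with a log2 fold change of -0.30 (edgeR adjusted p = 0.00883), whereas TSPAN31 was higher. The count irrespective of strand is not the sum of both strands, since reads that meet genes on both strands are given to no gene. By that count TSPAN31 had a log2 fold change of 0.48 and was not called (edgeR adjusted p = 0.0670).

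At TSPAN18 the opposite-strand reads numbered 308 to 378 with DMSO and 103 to 137 with dTAGV1, 2.67 times its own reads. They fell with a log2 fold change of -1.49 ± 0.11 (SE, edgeR adjusted p = 2.33e-12). TP53I11, the gene on the other strand, shares 74 exonic bases with TSPAN18 in GENCODE 29, and the overlap in the annotation that the authors counted with is not known. It had a log2 fold change of -1.46 with 336 to 423 reads with DMSO and 104 to 147 with dTAGV1 (edgeR adjusted p = 9.67e-12). Sense and opposite-strand reads thus both fell at TSPAN18, and a part of reads of the other strand in the TSPAN18 value was not tested. Counted irrespective of strand, without the reads that meet genes on both strands, TSPAN18 had a log2 fold change of -0.75 (edgeR adjusted p = 0.00336). At CD37, which overlaps TEAD2 on the other strand, 969 opposite-strand reads over the 8 libraries came with 0 reads on the strand of CD37. Opposite-strand counts sufficed for a test at 4 members, and 3 of them, TSPAN31, TSPAN18 and CD37, were called lower (48.4% of 3324 genes tested on that strand were called in either direction). The other member, CD151, had an adjusted p of 0.0686 (edgeR).

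**Figure D4:**
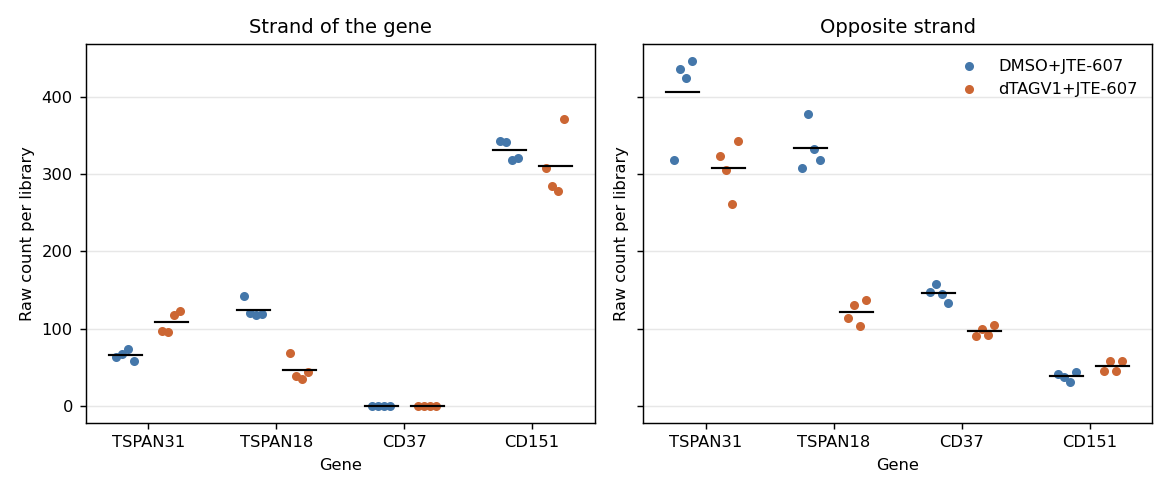
Raw counts per library on the strand of the gene (left) and on the opposite strand (right) for the 4 members tested on the opposite strand, with bars at group means. TSPAN31 and TSPAN18 have more opposite-strand than sense reads, and CD37 has reads only on the opposite strand.

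The 9 members that were not tested had at most 7 reads in any library. CD37 and CD53, which are tetraspanins of leukocytes, and TSPAN16 had 0 reads in all 8 libraries, which allows at most 0.0992 CPM over the 30247347 reads counted to genes, for counting error only. TSPAN32, also of leukocytes, and TSPAN11 had 1 read each. TSPAN8, a tetraspanin of the gut epithelium, had 4 reads with DMSO and 2 with dTAGV1, and TSPAN2 had 6 and 5. TSPAN7 had 17 and 9 reads, and it shares 676 exonic bases with ENSG00000250349 on the same strand in GENCODE 29, so that its counts are uncertain. TSPAN19 had 1 read with DMSO and 13 with dTAGV1 (3, 2, 7 and 1 in replicates 1 to 4), too few to pass the filter. The tetraspanins with other symbols, UPK1A, UPK1B, PRPH2 and ROM1, were outside the rule; ROM1 passed the filter and was not called, and UPK1B and PRPH2 had 0 CPM in both groups.

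The 18 partner genes comprised integrins, immunoglobulin-like partners, proteases, adhesion proteins, receptors and vesicle factors. Of these, 17 were tested (CLDN7 was not), and 10 rose and 3 fell, with a median log2 fold change of 0.27 and 76.5% called beside the 57.9% of all genes. Beside ADAM10, the largest increases were those of CD44, a receptor for hyaluronan, and PTGFRN, an immunoglobulin-like protein that binds CD9 and CD81. CD44 was at 696.3, 558.3, 563.5 and 575.2 CPM with DMSO and 1425, 1490, 1436 and 1381 CPM with dTAGV1. Its groups were far apart, with a log2 fold change of 1.26 ± 0.07 (SE, edgeR adjusted p = 4.06e-13).

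PTGFRN was at 65.58, 62.95, 59.5 and 56.38 CPM with DMSO and 129.2, 132.3, 142.9 and 130.1 CPM with dTAGV1, again without overlap. The log2 fold change of PTGFRN was 1.13 ± 0.08 (SE, edgeR adjusted p = 3.01e-11). Among decreases, RAB27B, a GTPase of vesicle release, had 11 to 16 reads with DMSO and 2 to 4 with dTAGV1, and a log2 fold change of -2.07 ± 0.40 (SE, edgeR adjusted p = 8.78e-05). RAB27B exceeded the filter minimum in all 4 DMSO libraries and in 0 of the dTAGV1 libraries. Its rank and p-value therefore depend on entry through the group in which it is high. With a mean of at least 100 counts, or counted irrespective of strand, it was not tested. ITGB4, which pairs with ITGA6 as a laminin receptor, had a log2 fold change of -0.46, while ITGA6 had one of 0.27, ITGA3 0.23 and ITGB1 0.85, and all 4 were called. For ITGA3 alone among them the groups overlapped (edgeR adjusted p = 0.0166). EGFR, at -0.26, was called (edgeR adjusted p = 0.0426) on overlapping groups. Its call was lost when any of 5 libraries was left out (DMSO replicates 1 and 4, dTAGV1 replicates 2, 3 and 4), with log2 fold changes of -0.27 to -0.19. Vesicle factors SDCBP (log2 fold change 0.42, called), PDCD6IP (0.20, not called), TSG101 (0.12, not called) and RAB27A (0.20, not called) changed less than RAB27B; the differences between these genes were not tested.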

How the data were processed

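Libraries were made with a QuantSeq forward kit of Lexogen for mRNA 3′ ends, per the labels' protocols. The deposited values are whole-number counts of reads per gene, in the layout of STAR's per-gene output; the submitters' processing notes name FastQC, fastp, STAR, HTSeq and DESeq2 on GRCh38, without versions or roles. The annotation, the trimming settings and whether molecular identifiers were read are not given in the sources used here, and intervals for counting error do not cover PCR copies. Sense-strand counts were used, which exceeded opposite-strand counts 8.28 to 8.48 times. Reads given to no gene, unmapped reads included, made up 56.7% to 62.8% of each library and stayed out of library sizes and tests. Unmapped reads alone ran from 20.4% in dTAGV1 replicate 4 to 30.3% in dTAGV1 replicate 1.

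Gene symbols were looked up in a names table, and gene types, coordinates and overlaps in GENCODE 29 (57356 of 78932 genes found); all 29 members matched. Tests used edgeR 4.0.16 in R 4.3.3 (filterByExpr defaults, TMM, robust quasi-likelihood F test) over all genes, with Benjamini-Hochberg adjustment and a threshold of 0.05; 1 comparison was made. Standard errors are the absolute log2 fold change over the square root of F. CPM is per 1000000 counts. Alternatives were DESeq2 1.42.0, limma 3.58.1 (voom), other scalings, filters and strands, a replicate block, and leaving out each library. Counts were simulated with the mean levels and library sizes of these data, for 12618 genes of which 200 were changed. There edgeR recovered 63.6%, 94% and 97% of genes changed by 0.5, 1 and 1.5 on the log2 scale, with 8 false calls. In the data 7302 genes were called, so these rates need not hold for them. Every pair of replicates differed by more than sampling noise (chi-square over degrees of freedom 1.89 to 5.65). Figures used matplotlib 3.10.9.

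Every member is named. Values in every library are given for called members with a mean of at least 10 CPM and for CD9, CD63, CD81, CD82, CD151 and TspanC8 genes; partner genes are ADAM10 and the 3 largest changes called in each direction. TSPAN12, the integrins and the vesicle factors were named in more detail after their values were seen, and so were the 6 end sequences. The members, lists and rules were chosen with earlier results of these data known. Of the leukocyte markers listed, 1 is not reported here.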

Additional observations from a re-analysis of the deposited data

Results flagged for a closer look

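In a group of 4 libraries, 2 values lay far from the other 3, out of 60 groups examined; chance alone gives about 1 such group in 20. The summed level of the 29 tetraspanins was 2231 CPM in DMSO replicate 3, where the gap to the next library was 0.875 of the range of the group. CD44 was at 696 CPM in DMSO replicate 1, with a gap of 0.878 of the range, and still lay below every dTAGV1 library.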

How the results depend on the processing

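Of the alternative values for the members, the partner genes named and the 5 counts of calls, 439 kept both direction and call, or for a count came within 1.5 times of it, while 15 lost the call, 13 changed sign and 2 counts moved further. The 9 higher and 6 lower members became 4 and 3 when a mean of at least 100 counts was required, since 10 of the 20 members were then tested. With single libraries left out there were 8 to 9 higher and 6 lower members, and 9 to 11 higher and 2 to 3 lower partner genes. Without a filter 10 members were higher, the added one being TSPAN19 (edgeR, Benjamini-Hochberg adjusted p = 0.0147, on 14 reads). CD82 was not called with library size scaling (0.32), limma-voom (0.35) or a mean of at least 100 counts (0.38), with log2 fold changes in brackets, and EGFR was not called by limma-voom (-0.25). Signs changed for members that were not called: CD151 was at -0.0624 with library size scaling, -0.0104 without a filter, -0.0065 with a mean of at least 100 counts and -0.0243 irrespective of strand. Leaving out 1 library, CD151 ranged from -0.0258 to 0.0556, TSPAN33 from -0.0436 to 0.2872 and TSPAN1 from -0.0004 to 0.1496. No direction is given for these 3 genes, and the cause was not tested.

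Library size scaling moved the median log2 fold change of all genes from 0.0149 to -0.0599. Replicate numbers 1 to 4 occur in both groups, but no label ties equal numbers to one culture or day. Deviations of same-numbered libraries correlated at 0.131, -0.0176, 0.0232 and 0.034, and 3 of the 8 libraries correlated best with their own number, so the numbers were not taken as pairs. With a replicate block, 9 members were higher and 6 lower, and 7434 genes were called in place of 7302.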
